A study of Mus musculus with 12 samples.

Results

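The Gadd45 family was followed through heart RNA of 12 mice as 4 genes, Gadd45a, Gadd45b, Gadd45g and Gadd45gip1, chosen by their symbols from the 24062 rows of the deposited count table. The hearts formed 4 groups of 3, each heart a library of its own. WT and KI/KI mice were 2 months old, and the KI/KI mice carried the Lemd2 c.T38>G change on both alleles in all cells. Floxed and cKO mice were taken at postnatal day 1 (P1). The floxed controls carried loxP sites around the first exon of Lemd2 and no Cre. The cKO mice carried the same allele with Myh6-Cre, which is driven by the cardiomyocyte myosin promoter, so that non-myocytes of these hearts retained Lemd2. The Cre transgene was thus present in 1 of the P1 groups and absent from the other. Both mutant lines were made by genome editing and crossed to C57BL/6N mice. In RNA from whole hearts, fewer cells of a type and less RNA per cell cannot be told apart.

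GADD45A, GADD45B and GADD45G are small, related acidic proteins whose genes are induced by growth arrest, DNA damage and other stress. They have no known enzymatic activity and act by binding partners. They activate the kinase MEKK4 upstream of p38 and JNK, inhibit the CDK1 and cyclin B complex, bind PCNA and p21, and are described to promote DNA demethylation through excision repair. Gadd45a is a classic target of p53, through a site in the third intron of the gene. GADD45GIP1, also called CRIF1, carries the family name because it was found as a binding partner of GADD45 proteins. It is not a homologue of them but a protein of the large subunit of the mitochondrial ribosome, needed for the synthesis and membrane insertion of respiratory chain proteins.

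In the GENCODE models of GRCm38, Gadd45a is a minus-strand gene of chromosome 6 (67035096 to 67037457). Gadd45b lies on the plus strand of chromosome 10 (80930073 to 80932204), and Gadd45g on the plus strand of chromosome 13 (51846678 to 51848468). Each of these genes has 4 exons in its longest transcript, and their exons add up to 1223 bases in Gadd45a, 1372 in Gadd45b and 1071 in Gadd45g. Gadd45gip1 lies on the plus strand of chromosome 8 (84831522 to 84835482), in 2 exons that add up to 2494 bases. E230016M11Rik, a processed transcript on the plus strand, overlaps Gadd45a. Whether strand was used in the counting is not given in the sources used here, so reads of this pair may not have been told apart. Gadd45b and Gadd45g overlap no annotated gene.

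The 250 bases before the RefSeq gene start (GRCm38.p6) are shown for the 3 homologues, since their promoters could be compared with the different patterns of the 3 genes across the hearts. The windows are chr6:67037408-67037657 for Gadd45a on the minus strand, chr10:80929841-80930090 for Gadd45b on the plus strand and chr13:51846425-51846674 for Gadd45g on the plus strand, all written 5′ to 3′. The RefSeq starts lie at 67037407 in Gadd45a, 80930091 in Gadd45b and 51846675 in Gadd45g, which differ from the GENCODE coordinates above. The last bases of the Gadd45a and Gadd45b windows therefore lie inside the GENCODE genes. Capitals mark the TATA box (TATAAA), the CCAAT box (CCAAT), the E-box (CACGTG), the octamer (ATTTGCAT) and a composite of C/EBP and ATF sites (TGATGCAA), each searched on both strands.
Gadd45a: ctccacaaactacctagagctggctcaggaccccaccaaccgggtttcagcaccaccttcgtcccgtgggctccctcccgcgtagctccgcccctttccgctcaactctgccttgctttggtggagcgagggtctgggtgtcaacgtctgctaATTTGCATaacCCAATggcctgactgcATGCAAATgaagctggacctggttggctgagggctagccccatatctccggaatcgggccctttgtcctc
Gadd45b: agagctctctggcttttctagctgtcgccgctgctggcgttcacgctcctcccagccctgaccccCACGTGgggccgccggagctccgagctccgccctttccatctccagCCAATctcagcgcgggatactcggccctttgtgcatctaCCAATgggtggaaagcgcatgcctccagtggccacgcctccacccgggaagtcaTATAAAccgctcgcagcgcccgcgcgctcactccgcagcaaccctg
Gadd45g: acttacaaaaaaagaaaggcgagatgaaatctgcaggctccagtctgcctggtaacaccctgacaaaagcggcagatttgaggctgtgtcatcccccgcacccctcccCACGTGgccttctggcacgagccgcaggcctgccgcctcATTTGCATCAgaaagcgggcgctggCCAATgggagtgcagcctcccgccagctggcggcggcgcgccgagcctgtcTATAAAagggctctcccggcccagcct

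All 3 windows held a CCAAT box, 2 of them in Gadd45b, as did 33.8% of the 32817 RefSeq mouse promoters searched over the same length. Gadd45b and Gadd45g shared a TATA box, which 12.4% of all promoters held. It began 46 bases before the RefSeq start in Gadd45b and 27 bases before it in Gadd45g, distances that depend on the annotated start. Both genes also shared an E-box, found in 6.02% of promoters. Gadd45a held neither. Gadd45a and Gadd45g shared the octamer, present in 1.6% of promoters. Gadd45a had 2 octamers in opposite orientations on either side of its CCAAT box. The only copy of the C/EBP and ATF composite lay in Gadd45g, on the opposite strand 101 bases before the RefSeq start, where it overlapped the octamer, and 0.792% of promoters held this motif. Beyond the capitals, a GC box (GGGCGG, 32.7% of promoters) was found in Gadd45a and Gadd45b, and 1 match to a p53 half-site (7.12% of promoters) in Gadd45a. This p53 match lay 40 to 31 bases before the RefSeq start, inside the GENCODE gene. No window held the cAMP response element (TGACGTCA, 1.55%), the AP-1 site (TGANTCA, 6.75%), the CArG box (1.47%) or the NF-kB site (7.25%). The GC content was 59.2% in Gadd45a, 65.2% in Gadd45b and 62.0% in Gadd45g. Matches describe these letters only, and binding of a factor was not measured.

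**Figure D1:**
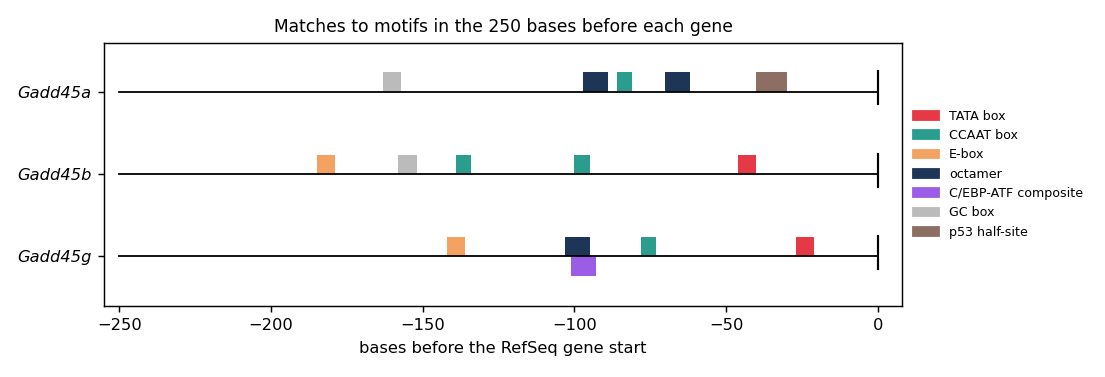
Positions of motif matches in the 250 bases before the RefSeq start of Gadd45a, Gadd45b and Gadd45g, with the distance from the start in bases on the x axis and each motif in its own colour (below the line, the composite that overlaps the octamer). Gadd45b and Gadd45g share a TATA box and an E-box that Gadd45a lacks, and Gadd45a and Gadd45g share the octamer.

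Total counts ranged from 37063669 to 44789753 per library, so that 3 counts, taken as the floor, correspond to 0.0603 to 0.0962 CPM. CPM are counts per 1000000 of the library size, normalized by edgeR's TMM method over all 12 hearts, and floors cover counting error only. All members were far above the floor in every heart, with counts between 127 and 2411. Lemd2 itself was at 31.9, 34.7 and 33 CPM in WT, 25.6, 25.1 and 24.8 in KI/KI, 24.4, 25.1 and 25.3 in floxed and 6.64, 13.1 and 11.3 in cKO hearts, with a log2 fold change of -0.39 (adjusted p = 0.181) in KI/KI and -1.27 (adjusted p = 0.0142) in cKO hearts (edgeR, Benjamini-Hochberg). All 6 cardiomyocyte markers were present in every heart, at a summed level of 26800 CPM or more. cKO replicate 4 stood apart in sex-linked genes, with Xist at 617 CPM against 0.169 to 2.03 in the 11 other hearts, and it alone had Y-linked genes near 0. Lung epithelial markers summed to 99.6 CPM in WT replicate 3, 34.4 in KI/KI replicate 4, 25.1 and 38.6 in floxed replicates 1 and 2 and 15.9 in cKO replicate 4, and to 3.02 or less in the other hearts.

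Gadd45g rose in cKO hearts, the largest difference of the family. The floxed hearts held 4.94, 7.09 and 5.58 CPM and the cKO hearts 48.5, 43.8 and 25.8 CPM. All cKO hearts lay above all floxed hearts, and the lowest of them, replicate 6, was still well above the highest heart of any other group. The means were 5.87 ± 1.11 and 39.3 ± 12 CPM (SD, n = 3 each), and the fitted change was 6.72-fold (log2 fold change 2.75, standard error (SE) 0.28, adjusted p = 0.00515, edgeR's quasi-likelihood test with Benjamini-Hochberg adjustment over 15317 genes). By unadjusted p, Gadd45g ranked 62 among those genes. At this threshold 16.9% of the tested genes were called, and 4.64% with a fold change above 2 in addition. The call held with each heart left out in turn, with adjusted p between 0.00052 and 0.0432. Without cKO replicate 4, the heart with Y-linked genes near 0, the log2 fold change was 2.56 (adjusted p = 0.0107).

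Gadd45b, the member known as a target of NF-kB and TGF-β signalling, rose as well, but less. Floxed hearts were at 12.4, 7.25 and 7.24 CPM and cKO hearts at 24.8, 21.3 and 17.6 CPM. The groups did not overlap, and floxed replicate 1 stood above the other floxed hearts. The change was 2.38-fold (log2 1.25, SE 0.25, adjusted p = 0.0207, edgeR and Benjamini-Hochberg). Groups without overlap were found in 39.3% of all genes tested at P1. The adjusted p was 0.0787 without floxed replicate 2, 0.0557 without floxed replicate 3, 0.0735 without cKO replicate 5 and 0.0542 with the level of Y-linked genes as a covariate, at log2 fold changes between 1.08 and 1.26.

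Gadd45a went the other way. Its levels were 4.4, 4.39 and 3.88 CPM in floxed hearts and 2.57, 2.94 and 3.07 CPM in cKO hearts. The lowest floxed heart was above the highest cKO heart, at a difference far smaller than those of the other homologues. The level was 1.48-fold lower in cKO hearts (log2 fold change -0.56, SE 0.15), and the adjusted p of 0.0482 (edgeR, Benjamini-Hochberg) lay at the threshold. This call depended on the fit. The adjusted p was 0.0527 with the older dispersion estimate of edgeR, 0.0514 with limma-voom and 0.0238 with DESeq2, and only 1 of the 6 fits that left out a heart stayed under 0.05.

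Gadd45gip1 had levels of 14.6, 14.3 and 17.8 CPM in the floxed group and 15.1, 16.7 and 18.4 CPM in the cKO group. The groups overlapped, and the difference was within the spread between hearts (log2 fold change 0.10, SE 0.12, adjusted p = 0.576, edgeR and Benjamini-Hochberg).

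**Figure D2:**
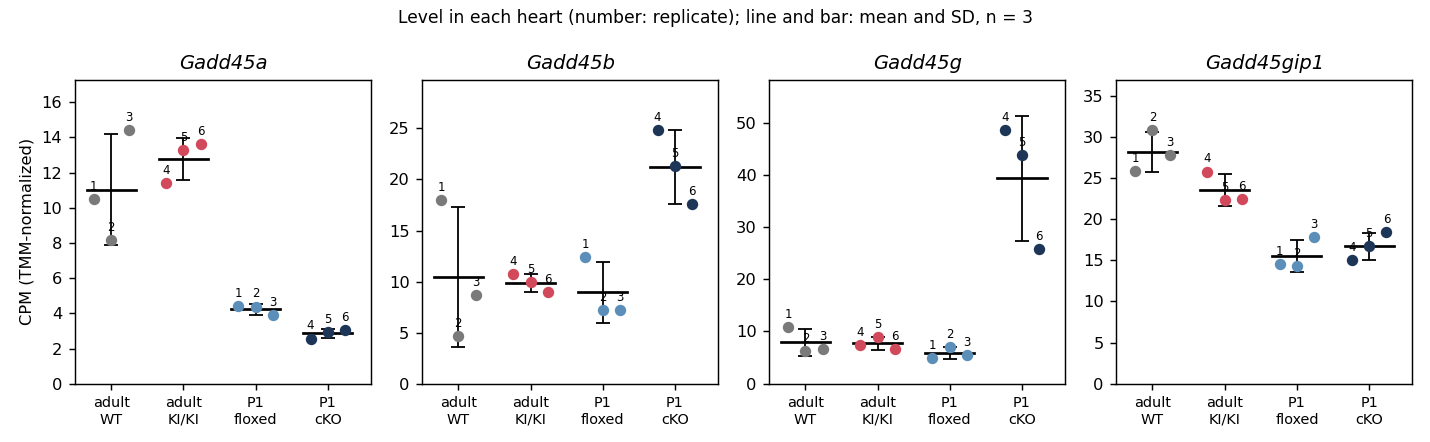
Levels of the 4 members in each heart in CPM, with the replicate number above each point and the mean and SD (n = 3) as line and bar. The cKO hearts reach 25.8 to 48.5 CPM of Gadd45g, above all other hearts, while Gadd45a is lowest in cKO and Gadd45gip1 lowest in both P1 groups.

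In adult KI/KI hearts no member passed the threshold. By edgeR 0% of the 14592 tested genes did (0 genes), while 2363 had an unadjusted p under 0.05, or 16.2%. DESeq2 called 529 genes and limma-voom 0. Gadd45g was at 10.8, 6.19 and 6.71 CPM in WT and at 7.47, 9.02 and 6.68 CPM in KI/KI hearts. The groups overlapped throughout, and the direction of the log2 fold change of -0.01 (SE 0.23, adjusted p = 0.98, edgeR and Benjamini-Hochberg) turned when WT replicate 1, KI/KI replicate 4 or KI/KI replicate 6 was left out. By RT-qPCR, the paper reports Gadd45g as significantly higher in KI/KI hearts, and the cause of this difference from the counts was not tested.

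Gadd45b spread most among the WT hearts, at 18, 4.64 and 8.65 CPM, against 10.7, 10 and 8.95 CPM in KI/KI hearts. The KI/KI values lay inside the WT range. The log2 fold change was -0.06 (SE 0.43, adjusted p = 0.955, edgeR and Benjamini-Hochberg), and it was 0.57 (adjusted p = 0.522) without WT replicate 1. In that same heart Gadd45g was also at its highest adult level. The 20 immediate early genes described below summed to 654 CPM there, against 533 and 539 in WT replicates 2 and 3. As a mean of centred log2 values, which weighs the genes equally, the class was not highest there, at -0.0556 against -0.118 and -0.0205. The 4 other genes named for DNA damage summed to 153 CPM against 96 and 74.9. Among these, Ddit4 spread most over the WT hearts (58.2 ± 46.1 CPM, SD, n = 3), against SDs of 4.25 or less for the others.

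Gadd45a was at 10.5, 8.18 and 14.4 CPM in WT and at 11.4, 13.3 and 13.6 CPM in KI/KI hearts, which overlapped (log2 fold change 0.21, SE 0.21, adjusted p = 0.619, edgeR and Benjamini-Hochberg). The highest WT value came from replicate 3, the heart with the most lung marker RNA, and the part of that RNA in the value was not tested.

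Gadd45gip1 was the only member whose adult groups did not overlap. It was at 25.9, 30.8 and 27.8 CPM in WT and at 25.8, 22.3 and 22.5 CPM in KI/KI hearts, although the nearest hearts differed only in the last digit. The log2 fold change was -0.25 (SE 0.09, unadjusted p = 0.0296, adjusted p = 0.277, edgeR and Benjamini-Hochberg). Groups did not overlap in 22% of all tested genes. Of the 48 tested genes for other proteins of the large mitochondrial ribosomal subunit, 44 had a negative log2 fold change in KI/KI hearts, 6 of them at an unadjusted p under 0.05, a share below the 16.2% of all genes, and 0 at an adjusted p under 0.05, with a median of -0.12 against 0.00 for all genes. Mrpl48, the one with the smallest p, had a log2 fold change of -0.49 (adjusted p = 0.193, edgeR and Benjamini-Hochberg). Summed cardiomyocyte markers were at 58600 to 65400 CPM in WT and 42300 to 57900 CPM in KI/KI hearts, without overlap, and the part of this difference in the values of Gadd45gip1 was not tested. In the P1 hearts, 24 of the same 48 genes had a positive and 24 a negative log2 fold change, the median was 0.00, and 1 passed the threshold, Mrpl52 (log2 fold change 0.40, adjusted p = 0.0242, edgeR and Benjamini-Hochberg).

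The difference between the effects of genotype in the 2 models was tested in a fit of all 12 hearts, in which allele, age and mouse line differed together. Gadd45g alone among the members passed, with a difference of 2.77 on the log2 scale (SE 0.38, adjusted p = 0.0116, edgeR and Benjamini-Hochberg), and 2.43% of 15729 genes were called. It ranked 17 of them by unadjusted p. The differences were 1.32 for Gadd45b (adjusted p = 0.199), -0.77 for Gadd45a (adjusted p = 0.144) and 0.37 for Gadd45gip1 (adjusted p = 0.238).

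**Figure D3:**
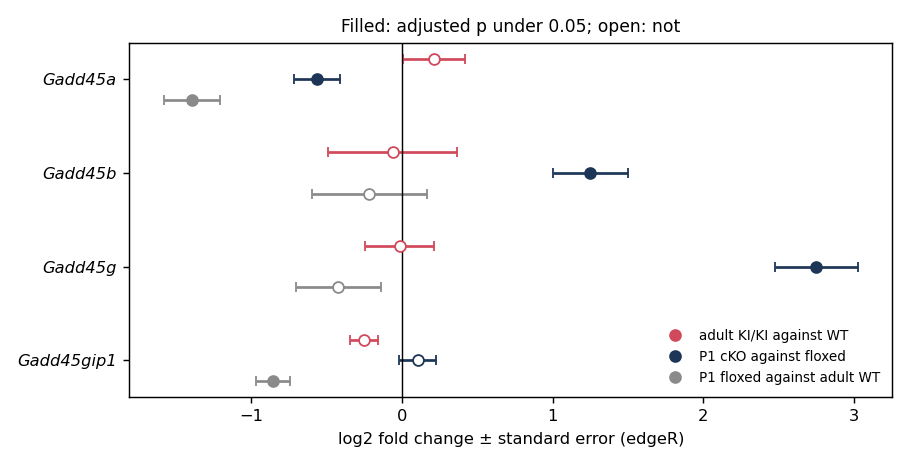
Log2 fold changes of the 4 members with their standard errors in 3 comparisons, filled where the adjusted p of edgeR's test was under 0.05. Gadd45g in cKO hearts stands farthest from 0 (2.75), the adult changes of all members lie between -0.25 and 0.21, and the change of Gadd45a in cKO hearts is filled at an adjusted p of 0.0482.

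Between the control groups of the 2 ages, Gadd45a and Gadd45gip1 differed and the other members did not pass the threshold. P1 floxed hearts had 2.62-fold less Gadd45a than adult WT hearts (log2 -1.39, SE 0.19, adjusted p = 6.38e-05) and 1.81-fold less Gadd45gip1 (adjusted p = 6.43e-05, edgeR and Benjamini-Hochberg). Differences between these groups were common, with 63.5% of tested genes called. Gadd45b (log2 fold change -0.22, adjusted p = 0.641) and Gadd45g (-0.42, adjusted p = 0.207) overlapped between WT and floxed hearts. Age and mouse line cannot be told apart here.

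Ordered by group mean, Gadd45a was highest in KI/KI (12.8 CPM), then WT (11 CPM), floxed (4.22 CPM) and cKO (2.86 CPM), and of these neighbours only KI/KI and WT overlapped. Gadd45b was highest in cKO (21.2 CPM), with WT (10.4 CPM), KI/KI (9.9 CPM) and floxed (8.96 CPM) below, each group overlapping the next, cKO and WT through WT replicate 1. Gadd45g had cKO hearts (39.3 CPM) apart at the top and WT (7.89 CPM), KI/KI (7.72 CPM) and floxed (5.87 CPM) hearts overlapping in that order. Gadd45gip1 was highest in WT (28.2 CPM), followed by KI/KI (23.5 CPM), cKO (16.8 CPM) and floxed hearts (15.6 CPM), and only the 2 P1 groups overlapped.

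Per kilobase of exon the 3 homologues can be set beside each other. In WT hearts they were at similar levels, 9.03 ± 2.58 CPM per kb for Gadd45a, 7.61 ± 5.01 for Gadd45b and 7.37 ± 2.34 for Gadd45g (SD, n = 3), and in KI/KI hearts at 10.5 ± 0.99, 7.22 ± 0.65 and 7.21 ± 1.11. In cKO hearts Gadd45g was at 36.7 ± 11.2, Gadd45b at 15.5 ± 2.64 and Gadd45a at 2.34 ± 0.21 CPM per kb. Gadd45g made up 26.8, 42.8 and 38.1% of the summed level of the 3 genes in the floxed group and 69.1, 69.5 and 61% in the cKO group. The share of Gadd45a was 20.8, 23.2 and 23.2% in floxed and 3.21, 4.09 and 6.38% in cKO hearts. The share of Gadd45b was 52.4, 34.1 and 38.6% in floxed and 27.6, 26.4 and 32.6% in cKO hearts, lower in all cKO hearts although its own level rose. The summed level of the 3 genes came to 17.2, 15.5 and 13.7 CPM per kb in the floxed group and to 65.5, 58.8 and 39.4 CPM per kb in the cKO group. Exon length is that of all annotated exons joined, and the transcripts used in these hearts were not determined.

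**Figure D4:**
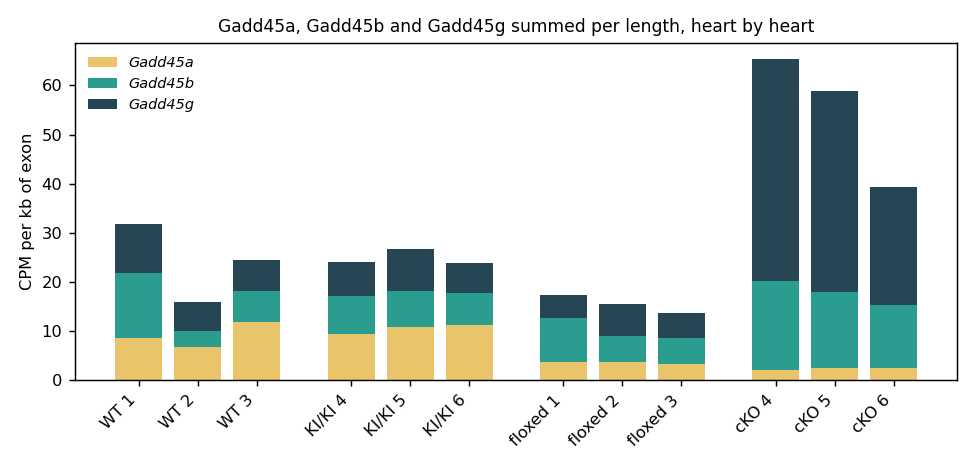
Summed level of Gadd45a, Gadd45b and Gadd45g per kilobase of exon in each of the 12 hearts, as stacked bars in CPM per kb. Gadd45g fills 61 to 69.5% of the bar in the cKO hearts and 25.7 to 42.8% in the others.

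The partners and targets through which GADD45 proteins act were counted from lists, and each count in cKO hearts stands beside the 16.9% of all tested genes called in either direction. In the p38 and JNK cascade, 2 of 16 tested genes fell in cKO hearts and none rose, a share below that 16.9%, the median log2 fold change being -0.11 against 0.00 for all genes. These were Map2k6, a kinase that phosphorylates p38 (log2 fold change -1.40, adjusted p = 0.00869), and Mapk10, which encodes JNK3 (-1.01, adjusted p = 0.0071, edgeR and Benjamini-Hochberg). In KI/KI hearts Mapk10 had the smallest p of the list (log2 fold change -0.24, adjusted p = 0.245, edgeR and Benjamini-Hochberg).

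Of the 5 cell cycle and replication partners, 4 rose in cKO hearts, where 16.9% of all genes were called (median log2 fold change 1.38). Cdkn1a, which encodes the CDK inhibitor p21, went from 19.6 ± 2 to 65.2 ± 4.52 CPM (SD, n = 3; log2 fold change 1.73, adjusted p = 0.00481). The mitotic cyclins Ccnb1 (1.99, adjusted p = 0.00704) and Ccnb2 (1.38, adjusted p = 0.0171, edgeR and Benjamini-Hochberg) rose too, so that the inhibitor and the cyclins were higher in the same hearts. The fourth was Cdk1, their kinase, and Pcna was not called (0.45, adjusted p = 0.344). The same number, 4 of 5, was called without cKO replicate 4. Summed over the 5 genes, cKO replicates 4, 5 and 6 were at 245, 268 and 432 CPM. The sum was thus highest in replicate 6, the cKO heart with the least Gadd45g and Gadd45b. In KI/KI hearts Ccnb1 had the smallest p of the list (log2 fold change 1.09, adjusted p = 0.443, edgeR and Benjamini-Hochberg).

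Among 18 tested genes of DNA demethylation and excision repair, 2 rose and 3 fell in cKO hearts, against 16.9% of all genes called, the median log2 fold change being -0.11. Tet1, an enzyme that oxidizes methylcytosine, fell from 53.3 ± 1.63 to 24.4 ± 3.74 CPM (SD, n = 3; log2 fold change -1.13, adjusted p = 0.00526, edgeR and Benjamini-Hochberg). Apobec1, a cytidine deaminase (0.81, adjusted p = 0.0357), and Neil2, a DNA glycosylase (0.74, adjusted p = 0.0359, edgeR and Benjamini-Hochberg), rose, but without cKO replicate 4 neither was called, and 0 genes of the list rose and 3 fell. In KI/KI hearts Xpc, which recognizes DNA lesions, had the smallest p (log2 fold change 0.18, adjusted p = 0.306, edgeR and Benjamini-Hochberg).

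Of 21 transcription factors described to act on a Gadd45 gene, 6 rose and 3 fell in cKO hearts, against 16.9% of all genes called, the median log2 fold change being 0.24. Atf3, a stress-induced factor of the ATF family, was at 6.31 ± 2.14 CPM in floxed and 31 ± 3.53 CPM in cKO hearts (SD, n = 3; log2 fold change 2.29, adjusted p = 0.00582). Egr1 rose from 31 ± 6.95 to 109 ± 6.87 CPM (1.81, adjusted p = 0.00481), and Cebpb, a C/EBP factor, had a log2 fold change of 1.31 (adjusted p = 0.0423, edgeR and Benjamini-Hochberg). Without cKO replicate 4, 4 rose and 1 fell, while 1885 of all 15528 genes tested were called. In KI/KI hearts Foxo4 had the smallest p (log2 fold change -0.23, adjusted p = 0.233, edgeR and Benjamini-Hochberg).

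The 4 other genes that carry names from DNA damage induction did not move as one. Ppp1r15a, also called Gadd34, a phosphatase subunit of the integrated stress response, rose in cKO hearts (log2 fold change 1.10, adjusted p = 0.0101), and Ddit4l, an inhibitor of mTOR signalling, fell (-1.48, adjusted p = 0.00828, edgeR and Benjamini-Hochberg). Ddit3 and Ddit4 were not called. In KI/KI hearts Ddit4l had the smallest p (log2 fold change -0.61, adjusted p = 0.305, edgeR and Benjamini-Hochberg).

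Genes of the immediate early class, which respond within minutes to many stimuli, tissue handling among them, differed in the same hearts as Gadd45b and Gadd45g. In cKO hearts 14 of 19 tested rose and 0 fell, against 16.9% of all genes called, at a median log2 fold change of 1.32, and 12 rose without cKO replicate 4. Atf3, Egr1 and Myc of this list also count among the factors above. Egr2 (log2 fold change 2.65, adjusted p = 0.00481), Egr3 (2.55, adjusted p = 0.00481) and Fos (2.51, adjusted p = 0.00688, edgeR and Benjamini-Hochberg) had the largest changes. Summed over 20 genes the class was at 303, 354 and 354 CPM in floxed and at 706, 645 and 606 CPM in cKO hearts, and its order among the cKO hearts, replicate 4 before 5 before 6, was that of Gadd45g and Gadd45b. This was not so for Gadd45b in floxed and KI/KI hearts. It was highest in floxed replicate 1 (12.4 CPM), where the sum was lowest (303 CPM), and in KI/KI replicate 4 (10.7 CPM), where it was lowest too (430 CPM). In adult hearts the sums were 533 to 654 CPM in WT and 430 to 588 CPM in KI/KI, which overlapped, and Dusp1 had the smallest p (log2 fold change -0.46, adjusted p = 0.244, edgeR and Benjamini-Hochberg). How much of the differences in Gadd45b and Gadd45g goes with this class was not tested.

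**Figure D5:**
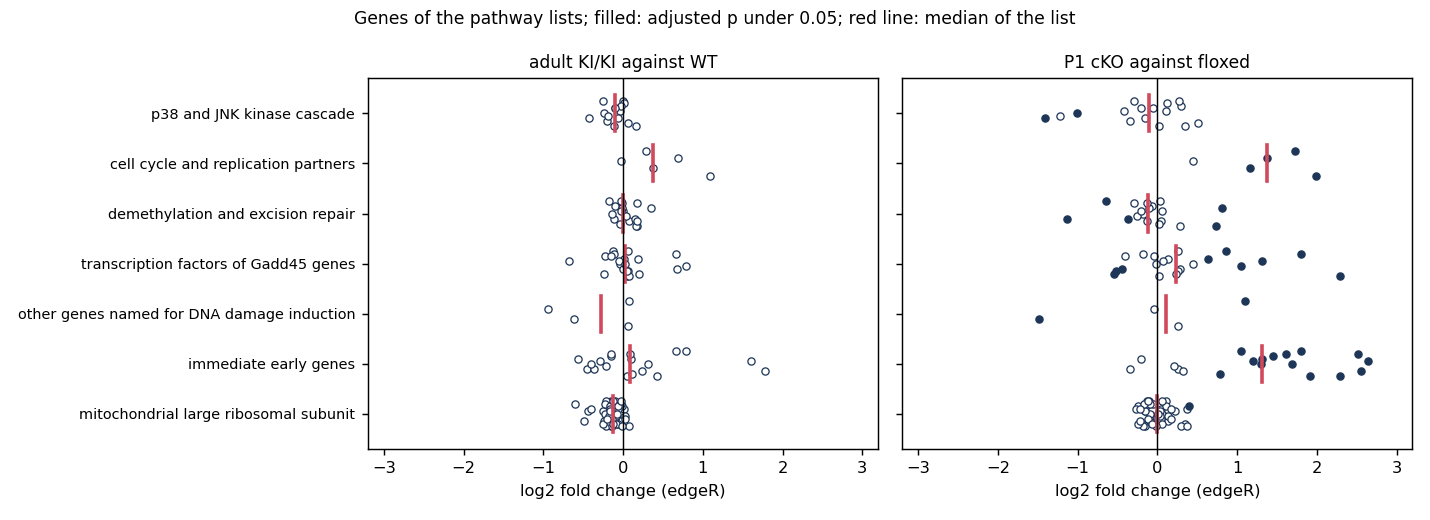
Log2 fold changes of the genes of 7 lists in KI/KI hearts (left) and cKO hearts (right), 1 point per gene, filled where the adjusted p of edgeR's test was under 0.05, with the median of each list as a red line. In cKO hearts the medians of the cell cycle partners (1.38) and of the immediate early genes (1.32) stand to the right, and in KI/KI hearts no point is filled.

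Markers of other heart cells also differed in the P1 comparison. Macrophage markers, 3 of 5 called higher, summed to 80.8 to 92.3 CPM in floxed and 97 to 183 CPM in cKO hearts, highest in replicate 4, and 16.9% of all genes were called in this comparison. Fibroblast markers, 3 of 5 called higher, summed to 2620 to 2790 CPM in floxed and 3980 to 4350 CPM in cKO hearts. The called ones were Postn, Col1a1 and Tcf21, while Pdgfra (log2 fold change -0.16) and Dcn (-0.14) had values of the other sign. Cardiomyocyte markers, 2 of 6 called lower, summed to 33400 to 37100 CPM in floxed and 26800 to 29600 CPM in cKO hearts, with log2 fold changes of 0.32 for Actn2 and 0.24 for Myh7, which were not called. No defining marker of these 3 types was at 0 in any heart. The part of cell composition in the changes of Gadd45 genes was not tested.

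The genes whose profile over the 12 hearts was most like that of each member were found by the root mean square difference of centred log2(CPM + 0.5) values among 13388 genes at 1 CPM or more on average. Nearest to Gadd45g (SD of its own values 1.12) were Rasl11b (0.373), a small GTPase of the Ras family, Cyr61 (0.384), a secreted matricellular protein, Snora17 (0.401), Adam9 (0.443), a membrane metalloprotease, and Fstl3 (0.462), which binds activin. Rasl11b went from 35.5 CPM in floxed to 156 CPM in cKO hearts, and Cyr61 from 33.6 to 259 CPM. Snora17 averaged only 0.336, 0.329 and 0.508 CPM in WT, KI/KI and floxed hearts. It reached the 1 CPM mean only through the cKO hearts (2.99 CPM). Nearest to Gadd45b (SD 0.692) were Cnr2 (0.36), a cannabinoid receptor, Orai2 (0.375), a calcium channel, Fam46a (0.391), March3 (0.393) and Aim2 (0.394), a sensor of cytosolic DNA. Gadd45a (SD 0.889) was closest to Asap3 (0.175), Vps13c (0.176), a lipid transfer protein, Cyp2j9 (0.191), Sdr42e1 (0.195) and Folr2 (0.2), a folate receptor, all of them higher in both adult groups than in both P1 groups. Gadd45gip1 (SD 0.377) was closest to Spg7 (0.0821), a mitochondrial protease, Dohh (0.0859), Epn1 (0.0895), Ifrd2 (0.0919) and Mrpl39 (0.0924), a protein of the same ribosomal subunit. Within the family, Gadd45b and Gadd45g differed by 0.649, Gadd45a and Gadd45gip1 by 0.603, and Gadd45a and Gadd45g by 1.72. Of the genes compared, 25.7% lay nearer to Gadd45b than Gadd45g did, and 18.7% nearer to Gadd45a than Gadd45gip1 did. For Gadd45a and Gadd45g this share was 94.9%. These distances are descriptions over hearts that share group, age and line.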

How the data were processed

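PolyA RNA of whole hearts was sequenced as 1 library per mouse. Per the labels and the study's methods, the authors used Trim Galore for trimming, STAR 2.7.2b for alignment (mm10) and HTSeq for counting, and the deposited values are raw counts per gene. These were tested with edgeR 4.0.16 in R 4.3.3 (TMM, filterByExpr, glmQLFit with robust dispersion and the dispersion trend of version 4, glmQLFTest, Benjamini-Hochberg adjustment over all tested genes, threshold 0.05). Each mutant comparison used its own 6 libraries, and the comparisons across ages used all 12. An earlier fit used the dispersion estimate of version 3, and the counts of calls under both were known when the version 4 fit was taken. p-values measure the spread between 3 mice a group. Standard errors (SE) are the log2 fold change divided by the root of the F statistic. CPM are set over all 12 libraries.

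Members and lists were chosen with earlier results of these data known. Named genes are the members and Lemd2, per list up to 3 genes called with non-overlapping groups in cKO hearts and the gene with the smallest p in KI/KI hearts, and per member the 5 nearest profiles. Cdk1, Pcna, Myc, Ddit3, Ddit4 and the single cell type markers were named after their values were seen. Alternatives were DESeq2 1.42.0, limma-voom (limma 3.58.1), no filter, RLE size factors, a minimum of 10 counts in all libraries, a joint fit, a Y-linked covariate, a replicate block, a fold change above 2 and each library left out. The older dispersion estimate, that of the earlier fit, was kept as an alternative outside the plan. List counts without cKO replicate 4 were added after seeing the data. Scripts were tested on simulated data. Gene models are from GENCODE and promoters from RefSeq (GRCm38.p6), which held 3 of the 4 members. A result on 1 other gene is not reported here.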

Additional observations from a re-analysis of the deposited data

Results flagged for a closer look

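The effect of genotype on Gadd45g differed between the models, by 2.77 on the log2 scale in the test of the difference itself (adjusted p = 0.0116, edgeR and Benjamini-Hochberg). The level was higher in 3 of 3 cKO hearts than in every floxed heart, and KI/KI and WT hearts overlapped. The paper reports higher Gadd45g in KI/KI hearts by RT-qPCR, a different assay. In these counts the adult log2 fold change was -0.01 (SE 0.23), and the lack of a call does not show an unchanged level. Why the assays differ was not tested. With each of the 12 hearts left out in turn, the difference between models stayed between 2.48 and 3.00, with adjusted p between 0.00231 and 0.0431. Age, allele and mouse line differed together between the models.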

How the results depend on the processing

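Of the fits of the 4 members under other settings, 219 kept direction and side of the threshold, 17 lost the threshold and 8 turned direction. Gadd45g in cKO hearts kept its call in all of them. Gadd45a in cKO hearts lost its call where a fold change above 2 was required (log2 fold change -0.56), with no filter (-0.56), with all 12 libraries in one fit (-0.56), with limma-voom (-0.56), with the Y-linked covariate (-0.49) and with the dispersion estimate of edgeR version 3 (-0.56), and ranged from -0.62 to -0.50 with single hearts left out, losing the call without floxed replicates 1, 2 or 3 or cKO replicates 4 or 5. Gadd45b in cKO hearts lost it with the Y-linked covariate (1.08) and without floxed replicates 2 or 3 or cKO replicate 5 (range 1.11 to 1.55). Gadd45gip1 between the ages did not reach a fold change above 2 (-0.86). In KI/KI hearts, limma-voom turned the directions of Gadd45b (0.16) and Gadd45g (0.031). Leaving out single hearts gave -0.42 to 0.57 for Gadd45b, turned without WT replicate 1 or KI/KI replicate 6, and -0.16 to 0.26 for Gadd45g, turned without WT replicate 1 or KI/KI replicates 4 or 6. Gadd45b between the ages ranged from -0.57 to 0.42, turned without WT replicate 1. The cause was not tested.

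Mutant and control hearts of one age share no replicate number, so they could not be paired. A replicate block across the ages gave 2.71 for the Gadd45g difference between models (adjusted p = 0.0622, edgeR and Benjamini-Hochberg) and moved the calls over all genes from 383 to 0, with fewer residual degrees of freedom by construction. Deviations of hearts with the same number correlated between -0.412 and 0.193 over genes, so the numbers were not taken to pair hearts.

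Genes called in KI/KI hearts went from 0 to 529 with DESeq2 and 48 in the joint fit, and ranged from 0 to 56 with single hearts left out (56 without KI/KI replicate 4 and 1 without KI/KI replicate 5). In cKO hearts they went from 2587 to 4113 in the joint fit and 1505 with the Y-linked covariate, and ranged from 160 to 3463 (160 without floxed replicate 1, 668 without floxed replicate 2 and 542 without cKO replicate 5). The difference between models called 1343 with DESeq2 and 51 to 924 with single hearts left out, over 1.5 times away for each heart but KI/KI replicate 5 and cKO replicate 4.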
